A study of Mus musculus with 4 samples.

Results

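Transcripts of 10 plasma protein genes of the liver were followed through 4 sorted populations of red cell precursors from mouse fetal liver. The genes were taken by symbol, and all 10 (Alb, Afp, Trf, Ttr, Apoa1, Apoa2, Apob, Fgb, Serpina1a and Rbp4) were among the 19564 symbols measured. Cells of E14.5 livers were stained for the erythroid antigen TER119 and for CD71, the transferrin receptor, and sorted. R2 holds proerythroblasts and early basophilic erythroblasts, R3 early and late basophilic erythroblasts, R4 mostly polychromatophilic and orthochromatophilic erythroblasts, and R5 late orthochromatophilic erythroblasts with reticulocytes. All 4 populations came straight from the sorter without culture, the labels name no treatment, and no source used here gives genotype or strain. Each population gave 1 library, so the differences below could not be checked against replicates and carry no p-values.

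The fetal liver is at the same time the main site of red cell production and an organ of growing hepatoblasts, the precursors of hepatocytes and bile duct cells. Erythroblasts mature in close contact with hepatoblasts and macrophages, and hepatoblasts already secrete most plasma proteins into the fetal blood. Their genes are driven by a small set of liver-enriched factors, the HNF4, FOXA and C/EBP families among them, and erythroid cells rely on GATA1 instead. The 10 genes were chosen as products of hepatoblasts, cells that no gate was set to collect. Where the transcripts came from was not tested, and in bulk RNA fewer cells of a type and less RNA per cell cannot be told apart.

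RefSeq promoter windows (build GRCm38.p6) were used for 8 of the 10 genes, all but Trf and Ttr. The 250 bases before the annotated start were searched on both strands. The member search left a chromosome out, so a gene missing from the 8 may still have a window. The sequences below show 3 of the 6 genes that held a C/EBP core (TTGCNNAA), the pair of most abundant members and the fibrinogen gene Fgb, with the core in capitals in the orientation of the gene. Alb lies at chr5:90460620-90460869 on the plus strand, Afp at chr5:90490464-90490713 on the plus strand, and Fgb at chr3:83049864-83050113 on the minus strand.
Alb: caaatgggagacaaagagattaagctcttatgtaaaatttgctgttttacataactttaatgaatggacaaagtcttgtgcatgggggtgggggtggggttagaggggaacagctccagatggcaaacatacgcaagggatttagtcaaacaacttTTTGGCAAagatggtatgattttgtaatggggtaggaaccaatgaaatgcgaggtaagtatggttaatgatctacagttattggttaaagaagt
Afp: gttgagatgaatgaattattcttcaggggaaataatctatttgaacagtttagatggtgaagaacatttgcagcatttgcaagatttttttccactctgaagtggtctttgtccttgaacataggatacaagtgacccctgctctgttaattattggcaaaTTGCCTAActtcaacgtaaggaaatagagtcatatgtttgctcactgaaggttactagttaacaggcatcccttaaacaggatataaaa
Fgb: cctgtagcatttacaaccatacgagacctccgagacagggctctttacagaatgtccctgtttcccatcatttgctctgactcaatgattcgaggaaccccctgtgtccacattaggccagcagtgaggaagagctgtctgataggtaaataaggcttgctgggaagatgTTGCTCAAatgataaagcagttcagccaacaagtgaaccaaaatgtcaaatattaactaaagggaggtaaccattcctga
The C/EBP core stood in 6 of the 8 genes (Alb, Afp, Apoa2, Apob, Fgb and Rbp4), and in 9.56% of 32851 promoter windows of the same length. An HNF4 motif (CAAAGTC) was in 1 of the 8, Alb, against 3.84%, and a FOXA site (TGTTTAC) in 2, Apoa2 and Rbp4, against 3.17%. The GATA letters AGATAA were in 0 of the 8 and in 9.99% of all windows. Other forms of the GATA site were not counted, and the printed Fgb window holds TGATAA and TGATAG. The TATA letters TATAAA were in 4 of the 8 and in 12.4% of all windows. Counted from the annotated start they began at -212 (Apoa2), -60 (Apob), -28 (Rbp4) and -7 (Afp), and position was not a condition of the search. None of these motifs overlapped another in the 3 printed windows. Apoa2 and Rbp4 had 2 windows each and were counted if either held the motif, whereas the shares are over single windows. Such matches describe the letters in these windows only.

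The values are RPKM, reads scaled to gene length and library size, so levels can be set side by side between genes. Read depth, worked out from the step size of 2 to 5 values per library, was about 20700000 (R5) to 27400000 reads (R4). Globin transcripts made up 5.52%, 59.4%, 80.4% and 81.9% of all RPKM from R2 to R5, a share that presses down the values of every other gene. Hba-a1 and Hba-a2 have identical values in every library, so the share may count the same reads under both symbols. Of 14 erythroid markers, these 2 among them, 11 were at least 2-fold higher in R3 than in R2. The directions below were therefore checked after scaling by the median gene and after removal of the globin genes.

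The members moved in the same directions across the sort, with Apob the exception in the last step, but by unequal folds. Their summed level was 227, 557, 189 and 408 RPKM from R2 to R5. Single members differed, with R5 from 0.163 times R3 for Apob to 1.23 times for Apoa1. Of the 10 genes, 9 were higher in R3 than in R2, lower in R4 than in R3 and higher again in R5 than in R4, and Apob differed from this order only in the last step. The same 3 directions held for 9 of the 10 with either rescaling. Of the 9942 genes that reached 1 RPKM in any library, 4.13% had that order in the deposited values, 5.63% after median scaling and 7.90% without globins. The order was singled out after the values were seen. All members but Apob were at 1 RPKM or more in every library, and Apob passed that minimum in R3 only.

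**Figure D1:**
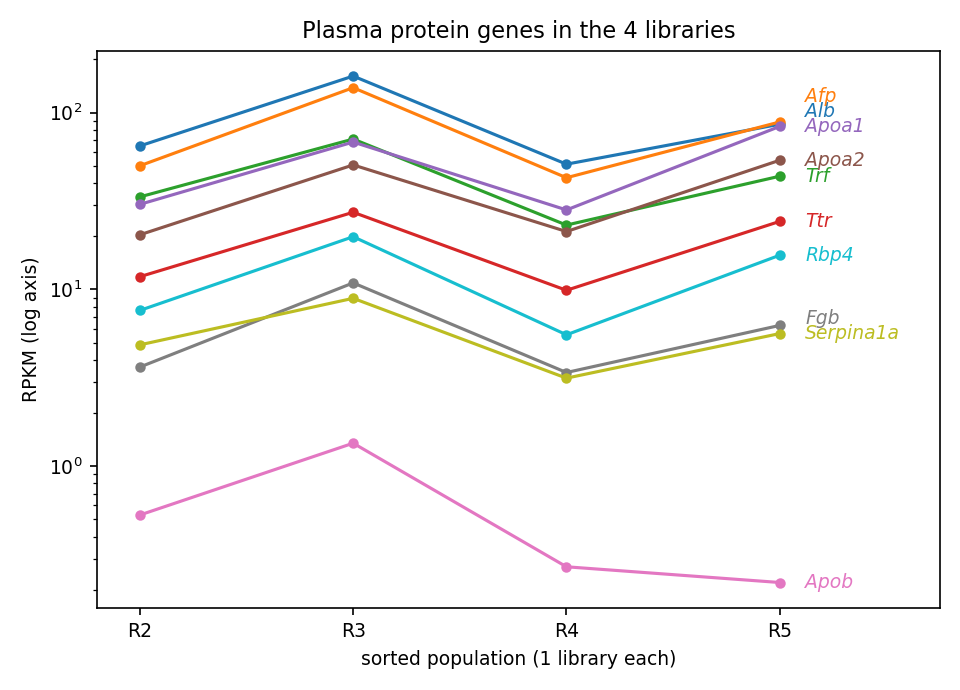
RPKM of the 10 plasma protein genes (log axis) in the libraries of R2, R3, R4 and R5, 1 point per library, with lines joining the points of a gene. The lines share their directions up to R4 and diverge in R5. In these unscaled values 8 genes are highest in R3 and Apoa1 and Apoa2 in R5, and Apob goes from 0.27 RPKM in R4 to 0.22 in R5.

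Among the carrier proteins, albumin and its fetal relative were the most abundant. Alb, which encodes the main plasma carrier and osmotic protein, was at 64.8, 161, 51.1 and 86.0 RPKM from R2 to R5. Among all 19564 symbols its rank was 1082, 197, 407 and 278, so that by rank, too, it was highest in R3. Afp, which encodes alpha-fetoprotein, the carrier made by fetal liver and yolk sac, was at 50.1, 138, 42.8 and 88.6 RPKM in the same order. The Alb value was 1.29, 1.16, 1.19 and 0.971 times the Afp value from R2 to R5, so the pair changed places in R5. Trf, which encodes transferrin, the plasma protein that brings iron to the receptor CD71, was at 33.4, 70.9, 23.1 and 43.7 RPKM from R2 to R5. Its order of libraries was that of Alb.

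The retinol carriers were lower in level and followed the same course. Ttr, which encodes transthyretin, the carrier of thyroid hormone that also binds the retinol binding protein, was at 11.8, 27.3, 9.89 and 24.3 RPKM from R2 to R5. Rbp4, the retinol binding protein itself, was at 7.61, 19.9, 5.54 and 15.6 RPKM. In both genes R5 stood nearer to R3 than it did in Alb, with R3 at 1.13 times R5 for Ttr and 1.27 times for Rbp4, against 1.87 times for Alb.

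The apolipoproteins differed most among themselves. Apoa1, the main protein of high density lipoprotein, was at 30.3, 68.2, 28.2 and 83.6 RPKM from R2 to R5. Apoa2, another protein of that particle, was at 20.4, 50.6, 21.3 and 53.8 RPKM. These 2 members alone were highest in R5 as deposited, while 7 members stood higher in R5 than in R3 with median scaling and 4 without globins. Apob, the large structural protein of low density lipoprotein, was at 0.53, 1.35, 0.27 and 0.22 RPKM from R2 to R5, the lowest member in every library. The Apoa1 value was 0.467, 0.423, 0.551 and 0.972 times that of Alb from R2 to R5, and Apob was 0.818%, 0.839%, 0.528% and 0.256% of Alb in the same order. These ratios within a library do not depend on the scaling.

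The clotting and protease inhibitor genes completed the group. Fgb, which encodes the beta chain of fibrinogen, was at 3.64, 10.9, 3.39 and 6.26 RPKM from R2 to R5. Serpina1a, which encodes an alpha-1-antitrypsin, an inhibitor of neutrophil elastase, was at 4.86, 8.91, 3.15 and 5.63 RPKM. Serpina1a belongs to a cluster of near-identical copies, so the division of reads between it and Serpina1b to Serpina1e is uncertain. Serpina1b was at 9.52, 22.4, 7.28 and 16.3 RPKM, and Serpina1c, Serpina1d and Serpina1e were highest in R3 as well.

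R3 against R2 sets basophilic erythroblasts beside their precursors. All 10 members were higher in R3, from 1.83-fold for Serpina1a to 2.99-fold for Fgb, and their sum was 2.45-fold higher. On the log2 scale of RPKM + 1, which understates changes of low genes, 8 of 10 members reached 2-fold higher and 0 reached 2-fold lower, where 3.81% of all 9942 genes were that much higher and 55.1% that much lower. The median log2 ratio was 1.21 for the members and -1.09 for all genes. The remaining 2 members, Serpina1a and Apob, were at 0.76 and 0.62. Reads estimated from transcript length gave Alb a ratio of 2.48-fold with a 95% interval of 2.38 to 2.59, Fgb one of 2.64 to 3.40 and Serpina1a one of 1.53 to 2.21. These intervals (exact, from the division of reads between 2 libraries) cover counting error only and are somewhat too narrow where the countable length was shorter than the transcript. With median scaling the folds ran from 3.38 to 5.52 and with globins removed from 3.14 to 5.12, and 9 members reached 2-fold higher under either. The median log2 ratio was then 1.96 and 1.91 for the members, and -0.35 and -0.46 for all genes. The share of all genes at 2-fold was not counted after rescaling.

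R4 against R3 sets late erythroblasts beside basophilic ones. All 10 members were lower in R4, from 2.38-fold for Apoa2 to 5-fold for Apob, where the counting interval was 4.03 to 6.25, and the sum was 2.95-fold lower. Of all genes 6.37% were higher in R4. On the log2 scale 9 of 10 reached 2-fold lower and 0 reached 2-fold higher, against 32.1% of all genes lower and 0.493% higher. Their median was -1.41 and that of all genes -0.77. The size of this step depended on the scaling. With globins removed the sum was 1.85-fold lower and 2 members were at least 2-fold lower, and with median scaling it was 1.39-fold lower and 0 members were, while all 10 stayed lower in R4 under both. The median log2 ratio of all genes was -0.36 with globins removed and -0.072 with median scaling, beside -0.83 and -0.52 for the members.

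R5 against R4 sets the population with reticulocytes beside late erythroblasts. Of the 10 members 9 were higher in R5, up to 2.97-fold for Apoa1 and 2.82-fold for Rbp4, and the sum was 2.16-fold higher. Of all genes 76.2% were higher in R5. On the log2 scale 5 (Afp, Ttr, Apoa1, Apoa2 and Rbp4) were at least 2-fold higher and 0 lower, against 3.96% and 0.604% of all genes. The median was 0.96 for the members and 0.27 for all genes. Apob was at 0.815 times its R4 value with an interval of 0.587 to 1.12, so that no difference was detectable for it at about 64 reads in R5 and 103 in R4. With median scaling 2 members were at least 2-fold higher, Apoa1 among them, and the sum was 1.67-fold higher, and with globins removed 4 were and the sum was 1.89-fold higher. The median log2 ratio was then 0.61 and 0.77 for the members, and 0.076 and 0.19 for all genes, whose share at 2-fold was not counted.

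R5 against R2 spans the whole course. Of the 10 members 9 were higher in R5, from 1.16-fold for Serpina1a to 2.76-fold for Apoa1, and Apob was lower. On the log2 scale 2 of 10 (Apoa1 at 1.43 and Apoa2 at 1.36) were at least 2-fold higher and 0 lower, where 2.74% of all genes were higher and 76.9% lower. The median was 0.73 for the members and -1.65 for all genes. With either rescaling 9 of 10 were at least 2-fold higher, and the sum was 5.44-fold higher with median scaling and 4.27-fold higher with globins removed. The median log2 ratio was then 2.16 and 1.84 for the members, and -0.44 and -0.71 for all genes. The shares of all genes above are for the deposited values and were not counted after rescaling. Apob was above its R2 value, at 1.26-fold, with median scaling and close to it, at 0.989-fold, with globins removed.

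**Figure D2:**
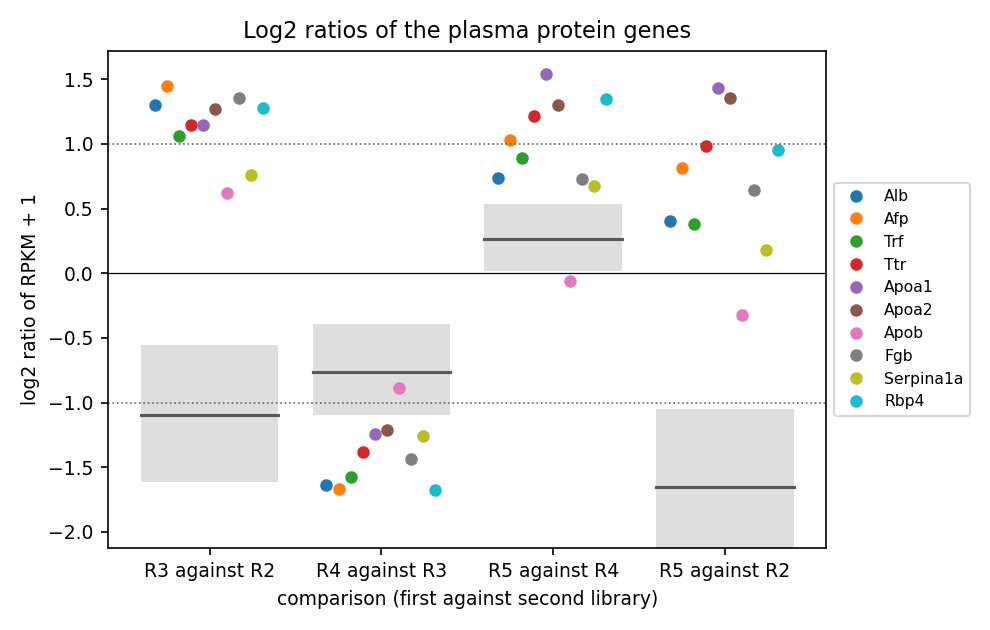
Log2 ratios of RPKM + 1 for the 10 plasma protein genes (coloured points) in 4 comparisons of single libraries. Grey bars span the quartiles of all 9942 genes and the dark line is their median; dotted lines mark 2-fold. In R3 against R2 all members lie above 0 while the median of all genes is -1.09.

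R5 was also set against R3, a comparison that leaves out the R2 library and was added after seeing the data, and there the direction turned with the scaling. As deposited 8 of 10 members were lower in R5, with a sum 1.37-fold lower, and 0 of 10 reached 2-fold in either direction, where 13.1% of all genes were that much lower and 0.664% higher. With median scaling 7 of 10 were higher in R5 and the sum stood 1.20-fold higher. Without globins 4 of 10 were higher, and the sum stood 1.02-fold higher.

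The makeup of the group shifted in R5. Alb, Afp and Trf together gave 65.2%, 66.4%, 62.0% and 53.5% of the summed level from R2 to R5. Apoa1 and Apoa2 gave 22.3%, 21.3%, 26.2% and 33.7%. The first 3 libraries thus lay within 5 percentage points of each other on both counts, and R5 stood apart.

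Members with shorter transcripts tended to have higher ratios of R5 to each other library. The longest coding transcript of the GENCODE annotation runs from 518 bases for Apoa2 and 1035 for Apoa1, through 2034 for Alb and 2571 for Trf, to 3810 for Fgb and 13934 for Apob. Across the 10 members, the log2 ratio of R5 to R4 had a Pearson's r of -0.89 and a Spearman's rho of -0.81 with log2 length, and -0.73 for both measures without Apob. Spearman's rho was -0.79 for R5 against R2 and -0.90 for R5 against R3. For R3 against R2 rho was -0.055, or 0.30 without Apob, and for R4 against R3 it was -0.079, or -0.48 without Apob. Of the genes past the filter, 8608 had such a length, and among them rho for R5 against R4 was -0.39, beside -0.34 in 43 other plasma protein genes of the liver. For R5 against R2 it was -0.014 in all genes and -0.32 in those 43. For R5 against R4 the median log2 ratio of all genes was 0.65 in transcripts of up to 750 bases. It was 0.36 between 1501 and 3000 bases and 0.067 above 6000 bases. These are correlations across genes of the same 2 libraries, which are not independent, and they carry no p-value. The part of transcript length in the members' values was not tested.

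**Figure D3:**
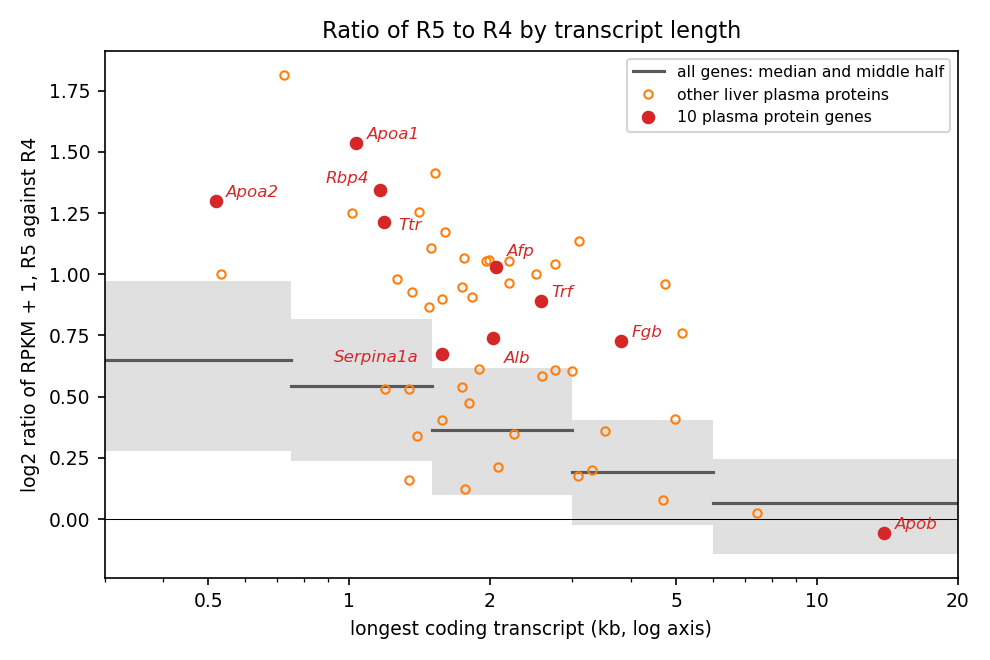
Log2 ratio of RPKM + 1 in R5 against R4 plotted against the longest coding transcript in kilobases (log axis) for the 10 members (filled), 43 other plasma protein genes (open) and all genes (grey: quartiles in each length class, dark line: median). Short transcripts such as Apoa1 at 1.54 lie high and the longest, Apob, lies at -0.058.

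Other plasma protein genes of the liver were read from a list of 68, of which 43 reached 1 RPKM in at least 1 library and 3 were listed at 0 in all. From R2 to R3, 12 of the 43 were higher by 2-fold or more and 6 lower, and their median log2 ratio was 0.86. Of all genes 3.81% were that much higher and 55.1% lower, with a median of -1.09. From R3 to R4 24 were lower and 0 higher, from R4 to R5 13 were higher and 0 lower, and between R2 and R5 4 were higher and 4 lower. Of all genes 32.1% were lower and 0.493% higher from R3 to R4, and 3.96% higher and 0.604% lower from R4 to R5. Between R2 and R5 2.74% of all genes were higher and 76.9% lower. These counts moved with the scaling. Without globins 31 were higher and 1 lower in R3 than in R2, 2 were lower in R4 than in R3, 9 were higher in R5 than in R4, and R5 against R2 had 27 higher and 2 lower. With median scaling these numbers were 30 and 1, 0, 3, and 28 and 1. Shares of all genes at 2-fold were not counted after rescaling. For R3 against R2 the median log2 ratio of all genes was then -0.46 without globins and -0.35 with median scaling. For R5 against R2 it was -0.71 and -0.44 in the same order. Of the 43, 36 had the order of libraries seen in the members, and 23 of the 28 that were at 1 RPKM or more in every library. Of all genes 4.13% had it, and 4.65% at that stricter minimum. Only 34 of the 43 reached 1 RPKM in R2, so the others passed the filter through a later library, which favours higher values after R2. Of those 34, 27 had the order, beside 3.38% of all genes at 1 RPKM in R2. Median scaling left that order in 31 of the 43. Ahsg, which encodes the carrier fetuin-A, was at 12.8, 29.8, 9.90 and 18.9 RPKM from R2 to R5, and Igf2, the fetal growth factor, at 12.5, 25.7, 9.15 and 18.8.

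The 7 plasma protein genes without that order as deposited were all highest in R2 in those values. Apoe and Apoc1 were highest in R5 instead with either rescaling, and F10 with median scaling, which left 4 of the 7 highest in R2 with median scaling and 5 without globins. Apoe, an apolipoprotein also made by macrophages, was at 160, 72.5, 33.4 and 81.0 RPKM from R2 to R5. Hp, which encodes haptoglobin and is also made by granulocytes, was at 131, 9.54, 6.18 and 9.38 RPKM, and C3, a complement gene expressed in myeloid cells as well, at 38.0, 10.6, 3.44 and 6.52. The last 2 of the 7 were F5 and Pros1. Another apolipoprotein gene, Apoc2, was highest in R5, at 6.77, 11.7, 4.25 and 17.5 RPKM from R2 to R5. Igfbp1, which encodes a binding protein for insulin-like growth factors, had the highest log2 ratio of the list for R5 against R2, 1.53, at 0.41 and 3.08 RPKM.

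The genes most like the members in pattern were found without regard to any list. The 4 values of each of the 5597 genes that reached 10 RPKM in any library were centred on their own mean in log2, and the distance to the mean profile of 8 members was taken. Fgb passed that minimum in R3 only, and Apob and Serpina1a did not reach it. Distances are in log2 units over 4 libraries, and the median over all genes was 2.25. The nearest were Serpina6, which encodes the carrier of corticosteroids, at 0.092, Serpina1b at 0.11, Serpinf2, which encodes an inhibitor of plasmin, at 0.11, Ambp at 0.12, Igf2 at 0.24 and Ahsg at 0.25. All 6 of these were on the list of plasma proteins. They were followed by the metallothionein gene Mt2 at 0.37, the hepatoblast surface gene Dlk1 at 0.41, 1700012L04Rik at 0.44 and the imprinted noncoding RNA gene H19 at 0.44. Mt2 was the most abundant of the 10, with 629, 1307, 665 and 1267 RPKM from R2 to R5.

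**Figure D4:**
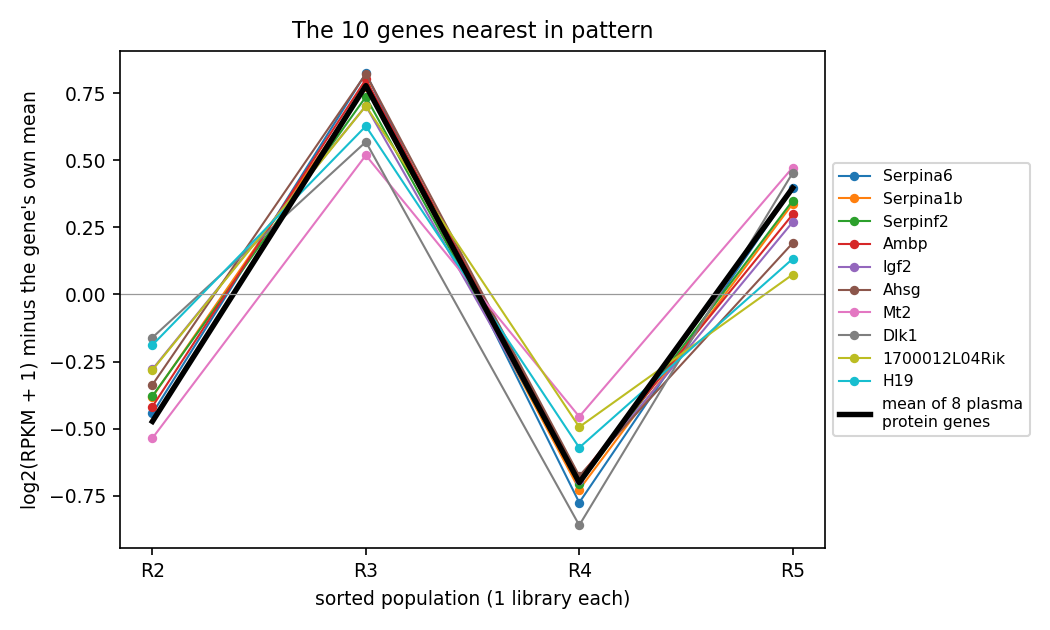
Centred log2(RPKM + 1) of the 10 genes nearest in pattern to the plasma protein genes, across the 4 libraries, with the mean of 8 members as the thick line. Serpina6, Serpina1b, Serpinf2 and Ambp run closest to it, and Mt2 lies at -0.46 in R4, where the mean of the members is -0.70.

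Most genes for proteins that stay in the hepatocyte were low in level. Of 40 genes for hepatoblast and hepatocyte cell proteins 12 reached 1 RPKM, and from R2 to R3 2 of these were higher by 2-fold or more and 2 lower, with a median log2 ratio of 0.59. Of all genes 3.81% were that much higher and 55.1% lower, with a median of -1.09. Median scaling gave 5 higher and 2 lower with a median of 0.98, and removal of globins 6 higher and 2 lower with a median of 1.04. The median of all genes was then -0.35 and -0.46, and their shares at 2-fold were not counted. From R3 to R4 2 were lower and 0 higher, where 32.1% and 0.493% of all genes were. From R4 to R5 1 was higher and 0 lower, where 3.96% and 0.604% of all genes were. With median scaling both steps had 0 in either direction. In 6 of the 12 the order of libraries was that of the members, also with median scaling, and in 7 without globins. Of all genes 4.13% had it as deposited, 5.63% with median scaling and 7.90% without globins. Dlk1 was at 19.2, 32.4, 11.4 and 29.8 RPKM from R2 to R5, the order of the members. The keratin gene Krt8 was at 2.49, 3.74, 1.75 and 2.93 RPKM. Ass1 and Asl, enzymes of arginine synthesis that many cells use, were at 25.6 and 17.6 RPKM in R2 and at 4.78 and 3.99 in R3. Hpd, a tyrosine-degrading enzyme, was at 0.05 RPKM in R2 and 1.22 in R3, few reads in either. Cyp2e1 and Tdo2, enzymes of the mature hepatocyte, were listed at 0 in every library.

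The transcription factors behind liver gene expression were low in level. Of 15 such factors only Cebpa and Hnf4a reached 1 RPKM. Hnf4a was at 0.90, 1.11, 0.80 and 0.83 RPKM from R2 to R5. Cebpa, which also acts in granulocyte precursors, was at 19.5, 3.37, 1.30 and 3.52 RPKM and so was highest in R2, where the granulocyte genes were highest too. The part of each cell type in these values was not tested.

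Receptors and partners of the plasma proteins were read from a further list. Of 18 such genes 13 reached 1 RPKM, and 0 of them had the order of the members as deposited (1 with globins removed), where 4.13% of all genes had it. From R2 to R3 1 of them was higher by 2-fold or more and 5 lower, where 3.81% and 55.1% of all genes were. Between R2 and R5 0 were higher and 8 lower, where 2.74% and 76.9% of all genes were. With either rescaling 1 of the 13 was higher and 3 lower between R2 and R5. The median log2 ratio of all genes was then -0.44 with median scaling and -0.71 without globins, and their shares at 2-fold were not counted. Tfrc, the transferrin receptor used in the sort, was at 52.1, 133, 74.4 and 32.8 RPKM from R2 to R5, and so was higher in R3 like its ligand gene Trf but lower in R5 than in R4. Scarb1, the receptor for high density lipoprotein, was at 80.2, 34.6, 11.3 and 17.4 RPKM. Ela2, the neutrophil elastase that alpha-1-antitrypsin inhibits, and Prtn3, another neutrophil protease, were at 640 and 968 RPKM in R2 and at 30.3 and 57.9 in R3. Itga2b, the platelet receptor for fibrinogen, was at 10.7, 6.08, 4.54 and 12.5 RPKM.

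Markers of other cells in the fetal liver were read beside the members. Of 14 macrophage markers past the filter all were lower in R3 than in R2 as deposited, 4 of them by 2-fold or more. Of all 9942 genes 12.6% were higher in R3 and 55.1% at least 2-fold lower, with a median log2 ratio of -1.09. With either rescaling 9 of the 14 markers were higher in R3. The summed levels of all 15 were 348, 109, 52.7 and 93.7 RPKM from R2 to R5. Lyz2, a lysozyme gene that granulocytes express too, gave 212 RPKM of this sum in R2 and 28.3 in R3. Without it, a choice made after seeing the data, the sum in R3 was 0.592 times that in R2 rather than 0.313 times. With Lyz2 kept, the sum was 0.577 times R2 with median scaling and 0.536 times without globins. The sum without Lyz2 was not rescaled. The median log2 ratio of the 14 markers past the filter, Lyz2 among them, was -0.32 as deposited. C1qb, a complement gene of macrophages, was at 15.8, 12.4, 4.74 and 13.9 RPKM, so that its last 2 steps had the directions of the members and of most genes. As deposited 0 of the 14 had the full order of the members, with median scaling 5 and with globins removed 6. All 11 granulocyte markers were lower in R3 than in R2 under all 3 scalings, and their sums were 6167, 428, 236 and 472 RPKM. The 10 lymphoid markers summed to 33.6, 2.43, 1.54 and 3.03 RPKM, with Cd3e and Ncr1 listed at 0 in every library, and the 11 endothelial markers to 81.1, 21.4, 9.15 and 19.0. Egfl7 and Eng gave 49.25 and 18.44 RPKM of the endothelial sum in R2, and 8.99 and 3.88 in R3. Of the 7 endothelial markers past the filter, 2 were higher and 4 lower in R3 than in R2 as deposited. With either rescaling 3 were higher and 4 lower. The 10 megakaryocyte markers summed to 49.5, 48.6, 25.5 and 75.2 RPKM, with the platelet factor gene Pf4 at 31.6 in R5.

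None of 11 mesenchymal markers reached 1 RPKM. The order of the members was found in 2 of the 10 megakaryocyte markers as deposited, 3 with median scaling and 4 without globins, and in 2 of 7 endothelial markers past the filter, 3 with either rescaling. The megakaryocyte sum was 0.981 times its R2 value in R3 as deposited, 1.81 times with median scaling and 1.68 times without globins. As deposited these 6 sums were all lower in R4 than in R3 and higher in R5 than in R4, as the members' sum was. In each of these steps most genes went the same way. Of all genes 6.37% were higher in R4 than in R3 and 76.2% higher in R5 than in R4. With median scaling the sums of macrophage, granulocyte, lymphoid and megakaryocyte markers were higher in R4 than in R3 instead, by 1.03-fold to 1.35-fold, where the members' sum stayed lower. Without globins the macrophage, granulocyte and megakaryocyte sums were lower in R4, at 0.771, 0.877 and 0.836 times R3, and the lymphoid sum was at 1.01 times, beside 0.540 times for the members. The part of these cell types in the members' values was not tested.

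**Figure D5:**
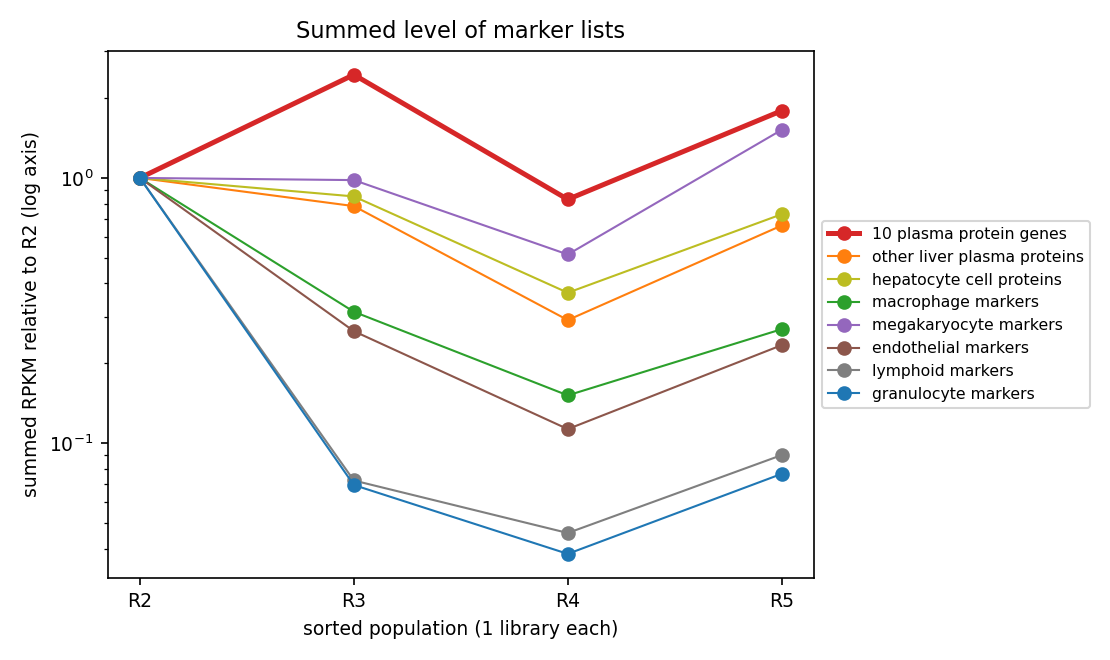
Summed RPKM of 8 gene lists in each library, divided by the sum in R2 (log axis), 1 library per point. As deposited the plasma protein genes stand at 2.45 in R3, where the granulocyte list stands at 0.0694 and the macrophage list at 0.313 (0.592 without Lyz2). With median scaling, not drawn, these 3 lists stand at 4.52, 0.128 and 0.577 in R3, and the sum without Lyz2 was not rescaled. As deposited all 8 lists are lower in R4 than in R3 and higher in R5 than in R4, directions that most genes share. With median scaling 4 of the lists, and without globins 1, are higher in R4 than in R3.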

How the data were processed

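Messenger RNA of 4 sorted fetal liver populations was measured, 1 library each. The values are RPKM per gene symbol with 2 decimals, as the authors deposited them. RNA was poly(A)-enriched, per the labels' protocols, and the build was mm9, per the submitters' processing notes. No source used here names the aligner, the counting program, the annotation or the gene lengths.

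Genes reaching 1 RPKM in any library were kept (9942), and log2 ratios of RPKM + 1 were taken, a 2-fold ratio counting as higher or lower. Members, lists and the named-gene rule were chosen with earlier results of these data known. The rule named all members, from each list the 4 highest means and the 2 highest and 2 lowest ratios of R5 to R2, and the 10 genes nearest in pattern. Not every gene it takes is described, and Apoc1, F10, F5, Pros1, Serpina1c, Serpina1d, Serpina1e, Cyp2e1, Tdo2, Cd3e and Ncr1, which fall outside it, were chosen after their values were seen. Of 249 list entries 241 matched a symbol.

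Depth came from up to 5 of 6 genes with values that were whole multiples of 0.5 of 1 unit (within 0.01), taken as 1 read over 1 base, and reads from that unit and the longest coding transcript (GENCODE M21, GRCm38, used for lengths only). As alternatives the pseudocount was set to 0.1 or 5 RPKM, the filter was dropped or raised to 5 RPKM, values were scaled by the median ratio over 2745 genes, and globin genes were removed. R5 against R3 was added after seeing the data. The steps were tested on simulated data. Python 3.11.15, pandas 2.3.3, numpy 2.4.6, scipy 1.17.1 and matplotlib 3.10.9 were used.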

Additional observations from a re-analysis of the deposited data

How the results depend on the processing

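The number of members at least 2-fold higher in R3 than in R2, 8 as deposited, was 4 with a pseudocount of 5 RPKM and 8 or 9 under the other alternatives. For R5 against R2 the number went from 2 to 9 with median scaling, 9 with globins removed and 4 with a pseudocount of 0.1 RPKM. For R5 against R4 it went from 5 to 2 with median scaling and 2 with a pseudocount of 5 RPKM. The number at least 2-fold lower in R4 than in R3 went from 9 to 0 with median scaling and 2 with globins removed. For R5 against R3, 1 member was higher with median scaling and 1 lower with a pseudocount of 0.1 RPKM, where 0 were as deposited. Leaving out the filter, or raising it to 5 RPKM (which drops Apob), moved none of these counts. Shares of all genes at 2-fold were not counted under the alternatives. No median log2 ratio over the members changed sign, except that of R5 against R3, which was -0.61 as deposited and 0.063 with median scaling. Without Alb, the most abundant member, the summed level had log2 ratios of 1.29 (R3/R2), -1.53 (R4/R3), 1.22 (R5/R4) and 0.98 (R5/R2), beside 1.29, -1.56, 1.11 and 0.84 with it. With 1 library per population the spread between animals or sorts is unknown, and no replicate could be left out. Depth limits the members with few reads, such as Apob with an estimated 64 to 482 reads per library and Serpina1a with 137 to 361.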
